A study of Homo sapiens with 12 samples.

Results

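The 10 Notch genes examined here were chosen by name for their place in the pathway: the receptors NOTCH1, NOTCH2 and NOTCH3, the ligands JAG1 and JAG2, the nuclear effectors RBPJ and MAML1, and the target genes HES1, HES4 and HEY1. These 10 genes were chosen with earlier results of these data known. Of these, 9 were found by symbol among the 11529 genes of the expression table, and HEY1 was not analysed here. RNA was sequenced from 2 human triple-negative breast cancer (TNBC) cell lines, MDA-MB-468, which the study classes as basal/stem-like, and MDA-MB-231, which it classes as mesenchymal-like. For each cell line there were 3 control samples, labelled wild type, and 3 SMARCA4 KO samples, 12 samples in 4 groups. SMARCA4 encodes an ATPase of the SWI/SNF complexes, which move nucleosomes. The KO cells had received the lentiCRISPR-v2 vector, which carries Cas9, with a guide RNA against SMARCA4, had been selected with puromycin, and were polyclonal pools, so that cells with different edits, or none, were sequenced together. The labels call the controls both wild type and control and do not say whether they were parental cells or carried a nontargeting vector, so that KO and vector with selection cannot be told apart.

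Notch receptors sit on the cell surface and are bound by ligands of the Jagged and Delta-like families on a neighbouring cell. Binding exposes the receptor to ADAM proteases and then to gamma-secretase, and the freed intracellular part enters the nucleus, where it joins the DNA-binding protein RBPJ and a Mastermind coactivator such as MAML1. Genes of the HES and HEY families, which encode transcriptional repressors, are the classical targets. In the breast, Notch signalling is known for its part in luminal and basal cell fate.

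RBPJ recognises sites with the core TGGGAA. The promoter windows of HES1 and HES4 are shown because these genes are read as the output of the pathway, and those of JAG1 and JAG2 because these were the members called after SMARCA4 KO. Each window holds 250 bases before and 50 bases after the start of the gene, 5′ to 3′ on the strand of the gene, taken from RefSeq on GRCh38.p14, and capitals mark TGGGAA. The windows were chr3:194135898-194136197 on the plus strand for HES1, chr1:1000048-1000347 on the minus strand for HES4, chr20:10673950-10674249 on the minus strand for JAG1 and chr14:105168727-105169026 on the minus strand for JAG2.
HES1: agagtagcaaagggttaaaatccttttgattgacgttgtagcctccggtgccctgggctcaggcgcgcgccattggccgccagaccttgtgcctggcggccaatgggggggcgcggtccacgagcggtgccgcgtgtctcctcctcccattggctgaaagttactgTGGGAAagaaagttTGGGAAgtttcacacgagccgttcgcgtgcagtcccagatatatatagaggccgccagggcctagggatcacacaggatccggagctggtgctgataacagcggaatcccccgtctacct
HES4: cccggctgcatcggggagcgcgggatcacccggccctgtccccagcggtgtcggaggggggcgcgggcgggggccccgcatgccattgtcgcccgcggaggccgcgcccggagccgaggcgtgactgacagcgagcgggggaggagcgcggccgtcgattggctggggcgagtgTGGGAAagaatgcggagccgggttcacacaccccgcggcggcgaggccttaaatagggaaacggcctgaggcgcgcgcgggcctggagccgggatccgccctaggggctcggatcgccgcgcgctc
JAG1: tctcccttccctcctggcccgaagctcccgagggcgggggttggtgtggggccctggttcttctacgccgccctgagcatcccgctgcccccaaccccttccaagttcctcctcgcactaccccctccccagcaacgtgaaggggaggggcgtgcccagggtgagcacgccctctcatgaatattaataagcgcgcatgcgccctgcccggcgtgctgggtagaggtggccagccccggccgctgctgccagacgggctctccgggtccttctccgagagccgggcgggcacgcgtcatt
JAG2: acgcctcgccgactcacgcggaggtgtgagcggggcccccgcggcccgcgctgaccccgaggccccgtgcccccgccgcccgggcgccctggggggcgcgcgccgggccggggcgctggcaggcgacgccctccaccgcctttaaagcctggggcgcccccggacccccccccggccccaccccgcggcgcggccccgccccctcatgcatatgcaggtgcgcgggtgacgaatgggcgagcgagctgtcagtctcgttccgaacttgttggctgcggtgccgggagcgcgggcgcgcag

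TGGGAA was searched on both strands. The HES1 window held 2 matches, which began 84 and 70 bases before the start of the gene, and the HES4 window held 1, which began 76 bases before it. The match at 84 bases in HES1 and the match in HES4 were preceded by G, which gives the longer form GTGGGAA. The JAG1 and JAG2 windows held no match. All 9 members had a window, 13 windows in all because RBPJ had several starts, and 3 of the 13 held TGGGAA, with 1 of the RBPJ windows holding 2 matches. Of all 35116 promoter windows, 24% held TGGGAA, 3.8% held it at least 2 times and 6.25% held GTGGGAA, which contains it. The sequence CACGTG, an E-box, was in 0 of the 13 windows and in 7.26% of all windows. The sequence CACNAG, the N-box that HES proteins bind, was in 38% of all windows. It was in windows of HES1, MAML1, NOTCH1, NOTCH2, NOTCH3 and RBPJ. The HES1 window held it 4 times, and how many of all windows held it as often was not counted. These matches describe letters in the windows, and no binding was measured.

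The deposited values were log2(FPKM + 1), where FPKM is a count of fragments scaled by transcript length and by the mapped fragments of the sample. Levels are given here as FPKM, which is scaled by length and allows genes to be compared, and differences as log2 fold changes of FPKM + 1, which understate the change of genes at low FPKM. The sequencing depth is unknown, since the values carry no counts. Samples of 1 group correlated at 0.9891 to 0.9954 across genes. SMARCA4 RNA, the check of the labels, fell in both cell lines, to 44.29% of the control mean FPKM in MDA-MB-468 KO cells and to 32.73% in MDA-MB-231 KO cells, with no overlap between groups. The cell lines had the markers of their labels: EPCAM was at 296.63 to 306.82 FPKM and the mesenchymal marker VIM at 2.04 to 3.66 FPKM in MDA-MB-468 control cells, against 12.4 to 16.71 and 1219.03 to 1395.56 FPKM in MDA-MB-231 control cells. The labels do not say that samples of 1 group came from separate cultures, so p-values measure the spread between these samples, which may be technical. The sample descriptions carry a p number that they do not explain. It was 26 to 28 in MDA-MB-468 control, 25 to 27 in MDA-MB-468 KO and 10 to 12 in both MDA-MB-231 groups. In MDA-MB-468 cells these numbers thus differed between KO and control samples. In bulk RNA, fewer cells with a transcript and less transcript per cell cannot be told apart.

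The control samples were compared first, to give the Notch genes that each cell line expressed before SMARCA4 KO. Control MDA-MB-468 cells had more NOTCH3, HES1 and HES4 RNA, and control MDA-MB-231 cells had more JAG1 and RBPJ RNA. A gene was called with a Benjamini-Hochberg adjusted p under 0.05 from limma over all 11529 genes and a log2 difference over 0.5. The cell lines differed widely: 32.8% of all genes were called higher in MDA-MB-468 cells and 31.4% lower. Leaving out NOTCH3, 2 of the other 8 members were called higher and 2 lower, which is not above those shares. The authors kept genes with a mean and an SD of FPKM of at least 1, and such a filter favours genes that differ between samples. Within a single cell line NOTCH3 would have passed it in MDA-MB-468 cells alone (mean 104 FPKM, against 0.188 FPKM in MDA-MB-231 cells), so that it had to differ, and its values are given as a description with no test. JAG1 had an SD of 0.57 FPKM over the 6 MDA-MB-468 samples and 3.01 FPKM over the 6 MDA-MB-231 samples, so that it too passed through 1 cell line. It is 1 of the 2 members called lower, and its difference between the controls is likewise a description with no test. NOTCH1 also passed through 1 cell line, with an SD of 1.22 FPKM in MDA-MB-468 and 0.963 FPKM in MDA-MB-231 samples, and was not called.

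NOTCH3, on chromosome 19 (GRCh37 chr19:15269849-15311806), was the receptor with the largest difference between the cell lines. Its level was 113.1, 113.11 and 116.11 FPKM in the 3 control MDA-MB-468 samples and 0.09, 0.16 and 0.06 FPKM in the 3 control MDA-MB-231 samples. It was the most abundant of the 9 transcripts in control MDA-MB-468 cells and the least abundant in control MDA-MB-231 cells, and the mean levels differed 1104-fold. The log2 difference of FPKM + 1 was 6.71, and it was 9.16 with 0.1 in place of 1 as the added constant. A ratio against a level this near 0 is uncertain in size.

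NOTCH1 and NOTCH2 were present in both cell lines at levels that differed far less. NOTCH1 (GRCh37 chr9:139388885-139440500) was at 7.5, 8.95 and 9.95 FPKM in control MDA-MB-468 samples and at 10.78, 9.35 and 7.84 FPKM in control MDA-MB-231 samples. These ranges overlapped, with a log2 difference of -0.07 (95% interval -0.35 to 0.20, limma adjusted p = 0.597). NOTCH2 (GRCh37 chr1:120454176-120643366) was at 27.23, 24.64 and 25.29 FPKM in control MDA-MB-468 samples and at 36.13, 37.23 and 28.72 FPKM in control MDA-MB-231 samples, which did not overlap. Its log2 difference of -0.38 (limma adjusted p = 0.00499) was under the limit of 0.5. NOTCH2NL, a near-identical partial copy of NOTCH2, was listed at 31.18 to 34.35 FPKM in control MDA-MB-468 cells and 13.95 to 16.96 FPKM in control MDA-MB-231 cells, and reads of NOTCH2 could have been assigned to it or from it, so the NOTCH2 level is uncertain.

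Of the ligands, JAG1 was higher in MDA-MB-231 cells. JAG1 (GRCh37 chr20:10618332-10654647) was at 5.715, 6.765 and 7.23 FPKM in control MDA-MB-468 samples and at 17.545, 15.82 and 16.095 FPKM in control MDA-MB-231 samples. All 3 MDA-MB-231 controls lay above all 3 MDA-MB-468 controls, with a 2.51-fold higher mean and a log2 difference of -1.21 for MDA-MB-468 minus MDA-MB-231. These values are given as a description with no test, since JAG1 passed the filter through 1 cell line. JAG1 was among 48 genes (0.416% of all) with FPKM values beyond 2 decimals, where other genes had 2; how such values were made is not given in the sources used here, and its absolute level is therefore uncertain. JAG2 (GRCh37 chr14:105607319-105635161) was low in both cell lines, at 2.16, 2.78 and 4.74 FPKM in control MDA-MB-468 samples and at 2.81, 4.98 and 4.57 FPKM in control MDA-MB-231 samples. The JAG2 ranges overlapped (log2 difference -0.30, 95% interval -0.79 to 0.19, limma adjusted p = 0.232).

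RBPJ, the DNA-binding partner of the Notch intracellular domain (GRCh37 chr4:26165077-26436753), was at 18.64, 18.57 and 18.3 FPKM in control MDA-MB-468 samples and at 56.99, 59.36 and 56.58 FPKM in control MDA-MB-231 samples. The groups were far apart for their spread: the MDA-MB-231 mean was 3.12-fold higher, and the log2 difference was -1.59 (limma, adjusted p = 2.59e-10). MAML1 (GRCh37 chr5:179159823-179204284) stayed between 16.08 and 23.43 FPKM in all 12 samples, with a log2 difference between the controls of 0.27 (limma, adjusted p = 0.00781), under the limit of 0.5.

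Both target genes were higher in MDA-MB-468 cells, the cell line with less RBPJ and JAG1 RNA and more NOTCH3 RNA. HES1 (GRCh37 chr3:193853937-193856521) was at 87.84, 51.17 and 78.11 FPKM in control MDA-MB-468 samples and at 9.7, 8.4 and 9.46 FPKM in control MDA-MB-231 samples. HES4 (GRCh37 chr1:934342-935552) was at 43.83, 53.98 and 54.94 FPKM in control MDA-MB-468 samples and at 10.82, 7.66 and 10.69 FPKM in control MDA-MB-231 samples. Neither gene had overlapping groups. The means were 7.88-fold and 5.24-fold higher, with log2 differences of 2.82 for HES1 and 2.28 for HES4 (limma, adjusted p = 5.16e-07 and 4.16e-08). In all, 7397 of 11529 genes were called between the control groups, and which of them depend on Notch signalling was not tested.

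**Figure D1:**
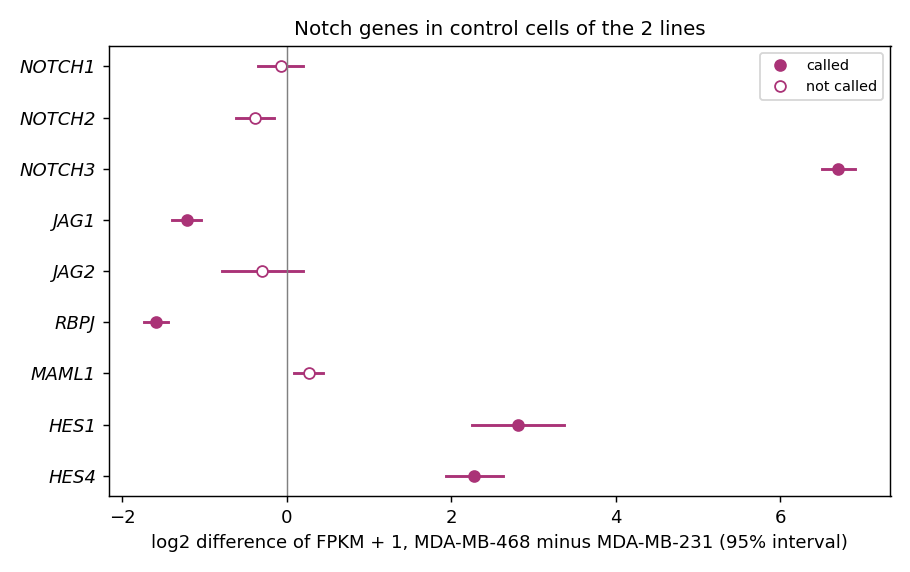
Difference of the 9 Notch genes between control cells, as log2 of FPKM + 1 in MDA-MB-468 minus MDA-MB-231 on the x axis, with the 95% interval from limma and 1 row per gene. NOTCH3 lies at 6.71, HES1 at 2.82 and HES4 at 2.28, while JAG1 and RBPJ lie at -1.21 and -1.59, and open points are genes that were not called. NOTCH3 and JAG1 are drawn filled and with an interval like the other called genes, but they are to be read as a description with no test.

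Ranked by mean FPKM, the control MDA-MB-468 cells gave NOTCH3 (114), HES1 (72.4), HES4 (50.9), NOTCH2 (25.7), MAML1 (21.7), RBPJ (18.5), NOTCH1 (8.80), JAG1 (6.57) and JAG2 (3.23). HES1 and HES4 were the neighbours whose samples overlapped there. In control MDA-MB-231 cells the order was RBPJ (57.6), NOTCH2 (34.0), MAML1 (17.85), JAG1 (16.5), HES4 (9.72), NOTCH1 (9.32), HES1 (9.19), JAG2 (4.12) and NOTCH3 (0.103). MAML1 and JAG1 overlapped there, as did HES4, NOTCH1 and HES1 among themselves. NOTCH3 moved from top to bottom between the cell lines. The places of JAG1 and NOTCH2 are uncertain, since their absolute levels are.

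**Figure D2:**
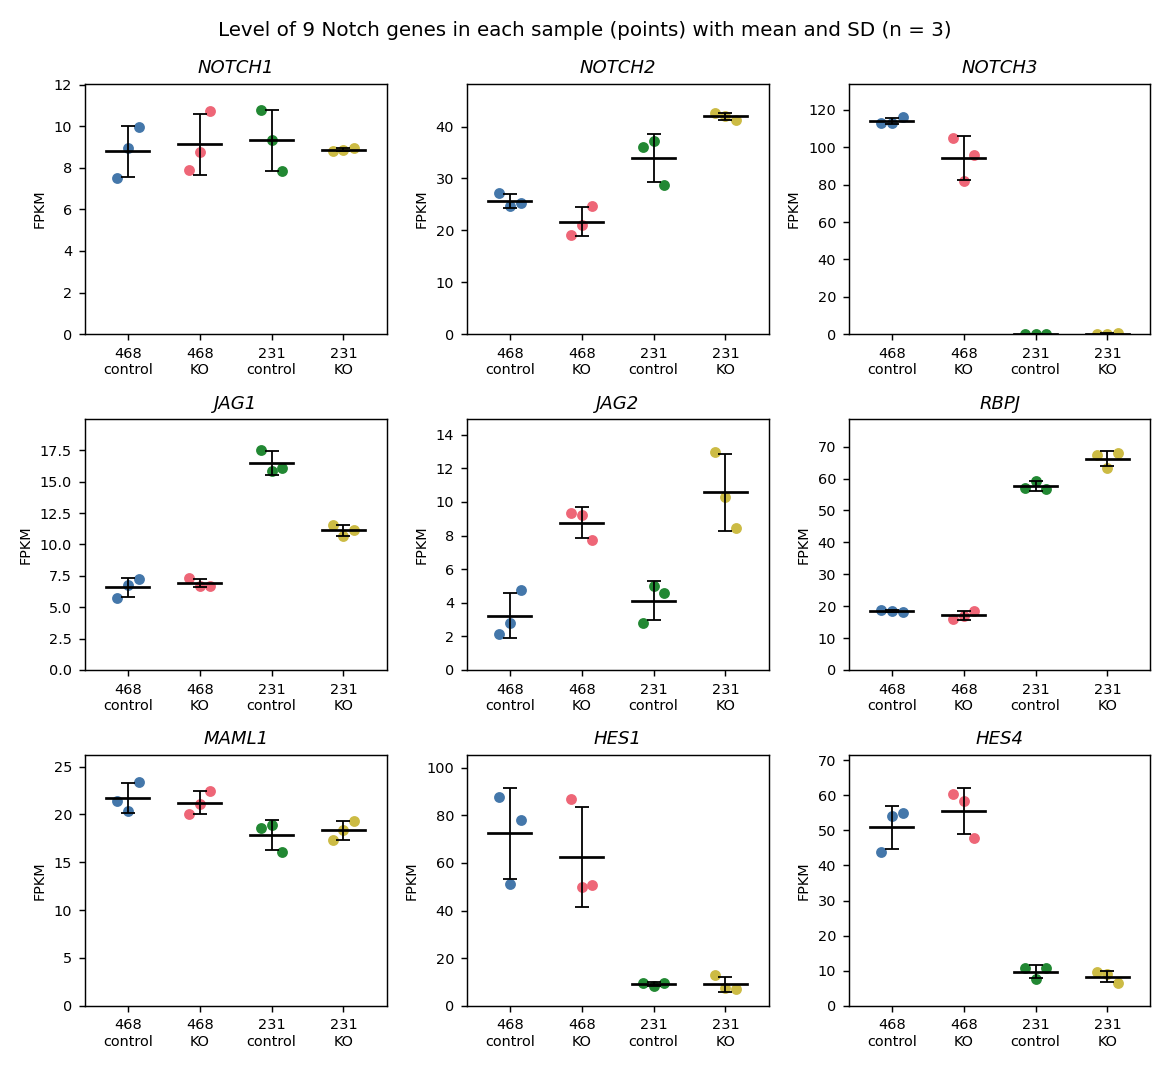
Level of each of the 9 Notch genes in FPKM (y axes, from 0, with a scale of its own for each gene) in the 3 samples of each group, with points for samples, a thick line for the mean and bars for the SD. JAG2 is higher in the KO samples of both cell lines, at 7.72 to 9.34 FPKM in MDA-MB-468 KO and 8.44 to 13 FPKM in MDA-MB-231 KO cells, and JAG1 is lower in MDA-MB-231 KO than in MDA-MB-231 control samples.

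KO and control samples were then compared within each cell line, to ask which Notch genes moved with loss of SMARCA4. JAG2 RNA rose in both cell lines, to between 2 and 3 times the control mean, and JAG1 RNA fell in MDA-MB-231 cells. The receptors, the nuclear effectors and the targets HES1 and HES4 were not called in either cell line. In MDA-MB-468 cells, 1 of 9 members was called higher and 0 lower, against 1.33% and 0.815% of all genes, and at an unadjusted p under 0.05 the limma fit had 2 of 9 members beside 25.1% of all genes. In MDA-MB-231 cells, 1 was called higher and 1 lower, against 2.39% and 1.31% of all genes, and 5 of 9 members had an unadjusted p under 0.05 beside 31.2% of all genes. The median log2 fold change of the 9 members was -0.03 in the former cell line and 0.04 in the latter, beside 0.02 and -0.01 over all genes. The 3 KO and 3 control samples did not overlap for 2 of 9 members in MDA-MB-468 cells, where the share of all genes was 31%, and for 5 of 9 in MDA-MB-231 cells, where it was 36%.

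JAG2, a Notch ligand of the Jagged family, was the member that rose in both cell lines. In MDA-MB-468 cells its level was 2.16, 2.78 and 4.74 FPKM in control samples and 9.34, 9.25 and 7.72 FPKM in KO samples. The lowest KO sample lay well above the highest control, and the KO mean was 271.8% of the control mean. The log2 fold change was 1.25 (standard error 0.23, 95% interval 0.69 to 1.81, limma adjusted p = 0.0485). The replicate numbers were taken to pair the MDA-MB-468 samples, which the labels do not state. A limma fit with these numbers as a replicate block gave an adjusted p of 0.0855, so that no member was called there. The call was also lost without any 1 of the 6 samples (limma adjusted p = 0.0565 to 0.166), while the log2 fold change stayed between 1.06 and 1.495.

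In MDA-MB-231 cells JAG2 was at 2.81, 4.98 and 4.57 FPKM in control samples and at 13, 10.3 and 8.44 FPKM in KO samples. Again no KO sample overlapped the controls, and the KO mean was 256.8% of the control mean. The log2 fold change was 1.19 (standard error 0.22, 95% interval 0.64 to 1.73, limma adjusted p = 0.0324). Without any 1 of the 6 samples the adjusted p was between 0.0526 and 0.108, and the log2 fold change between 0.99 and 1.32. In a single fit of all 12 samples the limma adjusted p of JAG2 was 0.00465 for MDA-MB-468 and 0.00548 for MDA-MB-231.

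JAG1, the other Jagged ligand, fell by 0.53 on the log2 scale in MDA-MB-231 cells, from 17.545, 15.82 and 16.095 FPKM in control samples to 11.54, 10.655 and 11.18 FPKM in KO samples. All KO samples lay below all controls, and the KO mean was 67.48% of the control mean (standard error 0.06, 95% interval of the log2 fold change -0.67 to -0.38, limma adjusted p = 0.0105). The fold change lay close to the limit of 0.5: it was -0.48 without control replicate 1 and -0.50, just under the limit, without KO replicate 2 (adjusted p = 0.0576), and neither was called. In MDA-MB-468 cells JAG1 was at 5.715, 6.765 and 7.23 FPKM in control and at 7.315, 6.725 and 6.72 FPKM in KO samples, which overlapped (log2 fold change 0.07, 95% interval -0.15 to 0.29, limma adjusted p = 0.658).

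Among the receptors, NOTCH1 was at 7.9, 8.74 and 10.75 FPKM in MDA-MB-468 KO samples and at 8.81, 8.85 and 8.98 FPKM in MDA-MB-231 KO samples. These lay within the range of the controls or overlapped it, with log2 fold changes of 0.05 (95% interval -0.30 to 0.39) and -0.05 (95% interval -0.32 to 0.21). NOTCH2 was at 19.19, 21.03 and 24.76 FPKM in MDA-MB-468 KO samples, where the highest sample overlapped the controls, and at 42.65, 42.06 and 41.19 FPKM in MDA-MB-231 KO samples, which were all above the controls. Neither log2 fold change was called, at -0.24 (limma adjusted p = 0.206) and 0.30 (0.113). NOTCH2NL had log2 fold changes of -0.01 and 0.02.

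NOTCH3, the abundant receptor of MDA-MB-468 cells, was at 105.14, 81.89 and 95.81 FPKM in the KO samples of that cell line. All 3 lay below the 3 controls, and the KO samples were more spread (SD 11.7, against 1.73 in the controls). The log2 fold change was -0.28 (95% interval -0.52 to -0.04, limma adjusted p = 0.15). In MDA-MB-231 KO samples NOTCH3 was at 0.25, 0.18 and 0.39 FPKM, above the controls but still near 0 (log2 fold change 0.20, limma adjusted p = 0.135). At such a level the fold change rests on the added constant: with 0.1 in place of 1 it was 0.87 (limma adjusted p = 0.0986), which was not called either.

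RBPJ was at 15.9, 16.98 and 18.59 FPKM in MDA-MB-468 KO samples, which overlapped the controls (log2 fold change -0.11, limma adjusted p = 0.356). In MDA-MB-231 KO samples it was at 67.5, 63.47 and 67.91 FPKM, all above the controls, with a log2 fold change of 0.20 (95% interval 0.08 to 0.32, limma adjusted p = 0.0554). MAML1 overlapped the controls in both cell lines, with log2 fold changes of -0.03 (95% interval -0.21 to 0.15) and 0.04 (95% interval -0.15 to 0.23).

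The target genes gave no call, and their intervals were wide. HES1 was at 86.73, 50.06 and 50.87 FPKM in MDA-MB-468 KO samples and at 12.76, 7.44 and 7.1 FPKM in MDA-MB-231 KO samples. In each KO group 1 sample, replicate 1, stood above the other 2, and the groups overlapped the controls. The log2 fold changes were -0.22 (95% interval -0.94 to 0.51, limma adjusted p = 0.681) and -0.05 (95% interval -0.58 to 0.47, limma adjusted p = 0.898). In MDA-MB-468 cells, where the replicate numbers were taken to pair the samples, each of the 3 KO samples lay below the control of the same number. With the replicate block the standard error of HES1 was 0.149 there, against 0.293 without it, and it was still not called (limma adjusted p = 0.408). HES4 was at 60.31, 58.25 and 47.92 FPKM in MDA-MB-468 KO samples and at 9.52, 8.96 and 6.44 FPKM in MDA-MB-231 KO samples. It overlapped the controls as well, with log2 fold changes of 0.12 (95% interval -0.19 to 0.44) and -0.21 (95% interval -0.66 to 0.24).

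**Figure D3:**
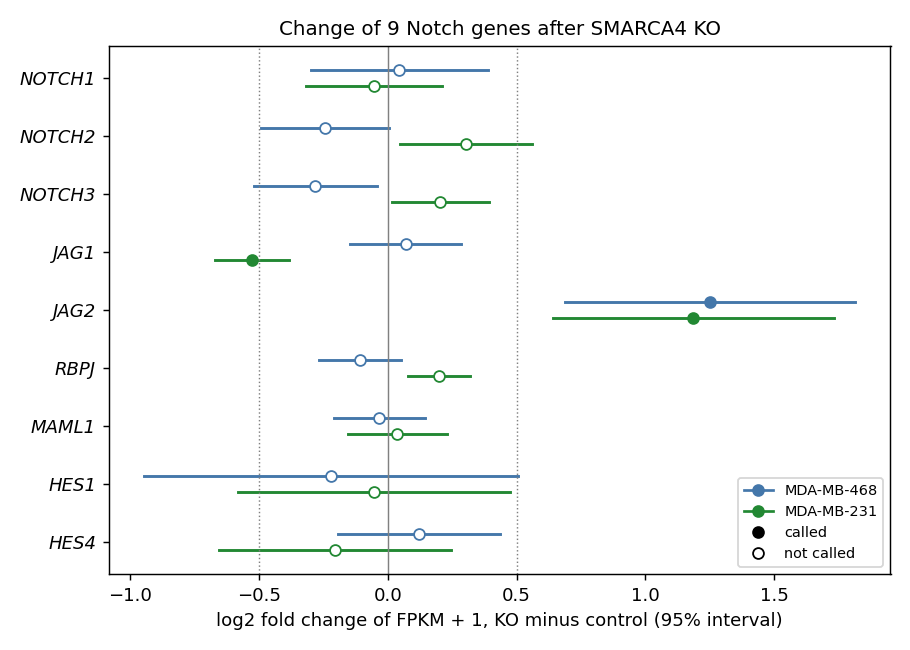
Log2 fold change of FPKM + 1 after SMARCA4 KO for the 9 Notch genes (x axis, KO minus control), in blue for MDA-MB-468 and green for MDA-MB-231, with 95% intervals from limma. Filled points were called and dotted lines mark the limit of 0.5 in each direction; JAG2 lies at 1.25 and 1.19 and JAG1 at 0.07 and -0.53.

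Markers of cell type were compared in the same samples, as a description. Of all genes, 36% had no overlap between the 3 KO and 3 control samples in MDA-MB-231 cells. In MDA-MB-468 cells that share was 31%. The mesenchymal markers VIM and AXL were lower in all 3 MDA-MB-231 KO samples than in all controls, from 1219.03 to 1395.56 down to 937.33 to 1039.71 FPKM for VIM and from 224.72 to 282.28 down to 187.79 to 220.96 FPKM for AXL. ZEB1, the other mesenchymal marker analysed, overlapped there, at 11.03 to 13.22 FPKM in control and 11.36 to 13.17 FPKM in KO samples. The summed level of the 3 mesenchymal markers analysed, of 4 listed, was 1457 to 1689 FPKM in control and 1137 to 1274 FPKM in KO samples of MDA-MB-231 cells. Of the 5 epithelial markers, CDH1, KRT8 and KRT19 were higher in all MDA-MB-231 KO samples, with CDH1 at 0.12 to 0.41 FPKM in control and 0.62 to 1.01 FPKM in KO samples, and KRT8 and KRT18 were higher and EPCAM lower in all MDA-MB-468 KO samples. The summed epithelial level was 751.4 to 1148 FPKM in MDA-MB-231 control against 1145 to 1264 FPKM in KO samples, and 4917 to 5263 against 5729 to 6142 FPKM in the other cell line. The mesenchymal sum in MDA-MB-468 cells was 2.15 to 3.78 FPKM in control and 3.7 to 4.32 FPKM in KO samples. Of 4 hormone and growth factor receptors, ERBB2 and EGFR were analysed, and ERBB2 was higher in all MDA-MB-231 KO samples, at 27.27 to 28.74 FPKM against 23.3 to 24.49 FPKM. Of the leukocyte markers, CD14 was the 1 of 3 analysed, at 46.05 to 52.86 FPKM in MDA-MB-468 control, 20.76 to 63.17 FPKM in MDA-MB-468 KO, 0.79 to 1.39 FPKM in MDA-MB-231 control and 2.65 to 4.9 FPKM in MDA-MB-231 KO samples. PTPRC, CD3E, PECAM1, VWF, SPARC, ESR1 and PGR were not analysed here. The part of these markers in the Notch results was not tested.

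Whether KO moved a gene differently in the cell lines was tested as the difference between its log2 fold changes, MDA-MB-468 minus MDA-MB-231, in a limma fit of all 12 samples, with an adjusted p under 0.05 and no limit on the fold. NOTCH2, NOTCH3, JAG1 and RBPJ passed, and JAG2, NOTCH1, MAML1, HES1 and HES4 did not. That is 1 of 9 members higher and 3 lower, where 7.91% of all genes were higher and 6.83% lower. NOTCH3 and JAG1, which passed the authors' filter through 1 cell line, are in this count, so it is given as a description. The comparison shares its control samples with those above.

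For JAG1 the difference was 0.60 (95% interval 0.35 to 0.85, limma adjusted p = 0.00695), and it passed under all 18 alternatives tried. Since JAG1 passed the authors' filter through 1 cell line, its difference, like that of NOTCH3, is read as a description. NOTCH2 differed by -0.55 (limma adjusted p = 0.0325), NOTCH3 by -0.48 (0.0297) and RBPJ by -0.30 (0.0467), each with a log2 fold change below 0 in the MDA-MB-468 fit and above 0 in the MDA-MB-231 fit, neither of which was called on its own. These 3 were less firm: NOTCH2 and NOTCH3 lost the call in 9 of 18 alternatives each and RBPJ in 13 of 18, with limma adjusted p up to 0.0761, 0.0622 and 0.10. NOTCH2 passed when MDA-MB-231 control replicate 1 or 2, MDA-MB-231 KO replicate 3 or MDA-MB-468 KO replicate 3 was left out and not without any 1 of the other 8 samples. The size of the NOTCH3 difference rests on the added constant, since its MDA-MB-231 levels were near 0: with 0.1 in place of 1 it was -1.15 (limma adjusted p = 0.0318), still called. NOTCH3 passed without MDA-MB-231 control replicate 2, MDA-MB-231 KO replicate 2 or MDA-MB-468 KO replicate 1 or 3, and RBPJ without MDA-MB-468 KO replicate 3. For JAG2 the difference was 0.07, with a 95% interval of -0.63 to 0.76, so that its fold changes could still differ by up to 0.76. For HES1 it was -0.17 (95% interval -0.96 to 0.63) and for HES4 0.33 (95% interval -0.16 to 0.82).

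The other genes of the pathway were taken from a list of 68, of which 51 were analysed; the ligands DLL1, DLL3 and DLL4, the receptor NOTCH4 and the targets HES5, HES7, HEY2, HEYL and NRARP were among those not analysed here. In MDA-MB-468 KO cells 3 of the 51 were called, all higher, beside 1.33% of all genes called higher and 0.815% lower. In MDA-MB-231 KO cells 1 was called higher and 1 lower, beside 2.39% and 1.31% of all genes, which is near those shares. The medians of the 51 log2 fold changes were 0.04 and 0.07, beside 0.02 and -0.01 over all genes, and the fold changes ran from -0.38 to 0.79 and from -0.50 to 0.84. None of the 19 coactivators and corepressors and none of the 5 other targets was called in either cell line.

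The genes called in MDA-MB-468 KO cells were DNER, LFNG and NEURL1. NEURL1, a ubiquitin ligase that acts on Notch ligands, rose from 1.96, 2.36 and 2.54 FPKM in control to 3.82, 4.55 and 5.79 FPKM in KO samples (log2 fold change 0.79, limma adjusted p = 0.0475). LFNG, a glycosyltransferase that alters which ligands a Notch receptor responds to, rose from 1.84, 1.67 and 1.66 FPKM to 3.66, 3.35 and 2.95 FPKM (0.66, adjusted p = 0.0199). DNER, a membrane protein described as a Notch ligand, rose from 0.14, 0.1 and 0.08 FPKM to 0.68, 0.55 and 0.58 FPKM (0.53, adjusted p = 0.0147). None of the 3 had overlapping groups, all were low in level, and all 3 lost the call when any control sample or KO replicate 2 or 3 was left out, with limma adjusted p of 0.0508 to 0.156. With 0.1 in place of 1 as the added constant the DNER log2 fold change was 1.77.

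In MDA-MB-231 cells DLK2, a membrane protein related to the Delta ligands, rose from 3.98, 4.7 and 4.55 FPKM in control to 9.35, 9.17 and 7.6 FPKM in KO samples (log2 fold change 0.84, limma adjusted p = 0.0110). DNER fell there, from 2.88, 3.07 and 3.07 FPKM to 1.97, 1.8 and 1.73 FPKM, with a log2 fold change of -0.50 (adjusted p = 0.00972) that only just passed the limit. DNER moved in opposite directions in the cell lines, and the difference of 1.03 was called (limma adjusted p = 5.91e-05). Without KO replicate 2 the limma adjusted p was 0.0567 for DNER and 0.0601 for DLK2, and DNER was under the fold limit without control replicate 2 (-0.49), control replicate 3 (-0.49) or KO replicate 3 (-0.47).

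The difference of the KO change between the cell lines was called for 9 of the 51, 3 higher and 6 lower, beside 7.91% of all genes higher and 6.83% lower. The 3 higher were DNER, LFNG and NEURL1, and DLK2 was among the 6 lower. The other 5 were ADAM10, ADAM17, NEURL1B, DTX4 and MAML2, which are named here after their values were seen. NEURL1 was near 0 in MDA-MB-231 cells, at 0.11, 0.03 and 0.09 FPKM in control and 0.17, 0.08 and 0.07 FPKM in KO samples. Its difference thus came from MDA-MB-468 cells and repeats the change there. With 0.1 in place of 1 as the added constant it was not called (limma adjusted p = 0.132). DLK2 was at 0.4, 0.32 and 0.35 FPKM in MDA-MB-468 control and 0.47, 0.85 and 0.81 FPKM in KO samples. Its KO mean was 199.1% of the control mean there and 197.4% in MDA-MB-231 cells. The DLK2 difference rests on the added constant: with 0.1 in place of 1 it was -0.17 (limma adjusted p = 0.686). ADAM10, a protease that cuts ligand-bound Notch receptors, was at 49.19, 49.9 and 51.6 FPKM in MDA-MB-468 control and 43.96, 45.62 and 47.71 FPKM in KO samples. In MDA-MB-231 cells it was at 54.13, 63.69 and 56 FPKM in control and 80.93, 81.33 and 77.56 FPKM in KO samples. Its KO samples lay below the controls in the former cell line and above them in the latter, with log2 fold changes of -0.13 and 0.46, neither called (the latter, at a limma adjusted p of 0.0222, for being under the limit of 0.5), and a difference of -0.59 (limma adjusted p = 0.00335). ADAM17, a related protease, differed by -0.40 (0.0267), NEURL1B, related to NEURL1, by -0.51 (0.0218), DTX4, of the Deltex family, by -0.38 (0.0257), and MAML2, a Mastermind coactivator like MAML1, by -0.46 (0.0186). DTX4 was at 0.03 to 0.11 FPKM in the 6 MDA-MB-231 samples, and its difference came from MDA-MB-468 cells, where it was at 56.28, 51.52 and 54.23 FPKM in control and 40.2, 38.52 and 44.83 FPKM in KO samples. ADAM10 and MAML2 kept the call under all 18 alternatives tried, while ADAM17 and DTX4 lost it in 6 and NEURL1B in 3.

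**Figure D4:**
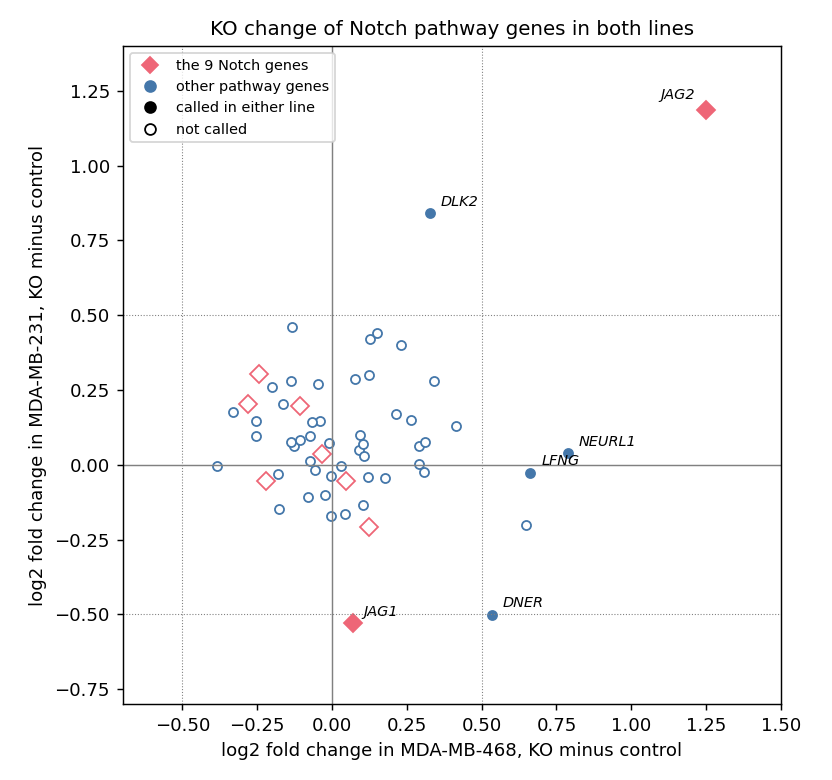
Log2 fold change of FPKM + 1 after SMARCA4 KO in MDA-MB-468 cells (x axis) and MDA-MB-231 cells (y axis) for the 9 Notch genes (diamonds) and 51 other pathway genes (circles), filled where called in either cell line. JAG2 is the point at the upper right, high on both axes, while DNER, at 0.53 and -0.50, is above 0 on the x axis and below 0 on the y axis.

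To find the genes most like the targets, each cell line's mean was subtracted and every gene was correlated with HES1 and HES4 over the 12 samples. The highest Pearson r with HES1 was 0.925 for STRADB and 0.906 for RAB25, and with HES4 it was 0.878 for AL589743.1 and 0.873 for GPR37. These are the highest values over all genes, in samples that share groups and processing, and are given as a description.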

How the data were processed

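RNA was sequenced with the TruSeq stranded mRNA kit. Per the study's methods and the labels, the authors used Trimmomatic for trimming, STAR with the hg19 genome for alignment and RSEM for FPKM. They dropped genes whose mean FPKM or SD was below 1. The deposited table holds log2(FPKM + 1) for 11529 genes. The annotation, the strand setting and the treatment of shared reads are not given in the sources used here. FPKM values were recovered from the deposited log2 values as 2 raised to the value minus 1. A date stands in place of the symbol in 18 rows, which stayed in the tests.

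KO and control samples were compared within a cell line with limma 3.58.1 (lmFit, eBayes without trend) in R 4.3.3 over all genes. Calls needed a Benjamini-Hochberg adjusted p under 0.05 and a log2 fold change over 0.5 in either direction. The difference of the KO change between cell lines and the difference between control groups were contrasts of 1 fit of all 12 samples. The fits were tested on simulated data. All members were named, as were other pathway genes called in either cell line; those called for the difference alone were added after their values were seen. The members and lists were chosen with earlier results of these data known.

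Replicate numbers come from the sample titles. In MDA-MB-468 cells the deviations of same-numbered control and KO samples from their group means correlated across genes at 0.254, 0.161 and 0.119. The numbers were therefore taken to pair these samples, a pairing that was inferred from these same values. Samples matched by the p number in the descriptions, which pairs MDA-MB-468 samples otherwise, correlated at -0.232 (p26) and 0.029 (p27). In MDA-MB-231 cells the replicate numbers were not taken to pair the samples. The alternatives, which for these added genes were chosen after seeing the data, were an added constant of 0.1, a filter on mean log2 values over 1, an intensity trend, scaling to the 75th percentile, quantile normalization, replicate blocks, 1 fit of all samples, other fold limits and leaving out each sample. Gene positions are from GENCODE mapped to GRCh37. An antisense lncRNA overlaps NOTCH1, NOTCH2 and JAG1 and a lncRNA on the same strand overlaps JAG2, and reads from these could not be separated here. Promoters are from RefSeq (GRCh38.p14). Figures were drawn with matplotlib 3.10.9 in Python 3.11.15.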

Additional observations from a re-analysis of the deposited data

Results flagged for a closer look

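The KO change of 13 named genes differed between the cell lines by the limma test of the difference (adjusted p under 0.05, MDA-MB-468 minus MDA-MB-231, log2 scale). Among the members the difference was -0.55 for NOTCH2, -0.48 for NOTCH3, 0.60 for JAG1 and -0.30 for RBPJ. Among the other pathway genes it was -0.51 for DLK2, 1.03 for DNER, 0.69 for LFNG and 0.75 for NEURL1, and it was -0.59 for ADAM10, -0.40 for ADAM17, -0.51 for NEURL1B, -0.38 for DTX4 and -0.46 for MAML2, which were named after their values were seen. These 9 of 51 other pathway genes stand beside 14.7% of all genes called for the difference. JAG1, LFNG, DNER, ADAM10 and MAML2 kept the call under all 18 alternatives. DLK2 lost it in 9 of 18, among them the replicate block (limma adjusted p = 0.0661), 7 fits with 1 sample left out and the added constant of 0.1, where the difference was -0.17 (0.686). With that constant the limma adjusted p of NEURL1 was 0.132, and the NOTCH3 difference was -1.15. NOTCH3 and JAG1 passed the authors' filter through 1 cell line, and their differences are read as a description. ADAM17 lost the call without MDA-MB-231 control replicate 2 or 3, MDA-MB-468 control replicate 1 or 2 or MDA-MB-231 KO replicate 1 or 2, with limma adjusted p up to 0.0641. NEURL1B lost it without MDA-MB-468 control replicate 1, MDA-MB-231 KO replicate 2 or MDA-MB-468 KO replicate 2, with limma adjusted p up to 0.0591. DTX4 lost it with the added constant of 0.1 (limma adjusted p = 0.318) and in 5 fits with 1 sample left out, MDA-MB-231 control replicate 1, MDA-MB-468 control replicate 1, MDA-MB-231 KO replicate 1 or 2 or MDA-MB-468 KO replicate 2. Groups of 3 samples are too small for a test of outlying samples.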

How the results depend on the processing

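Over 557 alternative values of the 9 members, 485 kept direction and side of the threshold, 52 lost the call, 1 gained it and 19 changed sign; for the other pathway genes named, it was 278, 53, 0 and 4 of 335. Of the members, 1 was called in MDA-MB-468 cells and 0 with log2(FPKM + 0.1), quantile normalization, the replicate block, the block by the p number in the descriptions, or any sample left out (0 to 0). Of the other pathway genes, 3 were called there, 1 with quantile normalization, 0 with the p number block or a log2 fold change over 1, and 0 to 3 with a sample left out. In MDA-MB-231 cells, 2 members were called, 1 with 75th percentile scaling or a log2 fold change over 1, 0 with the replicate block and 0 to 1 with a sample left out; of the other pathway genes it was 2, then 1 with 75th percentile scaling, 0 with the block or a log2 fold change over 1, 6 with no fold limit and 0 to 2 with a sample left out. The replicate numbers were not taken to pair the MDA-MB-231 samples (correlations -0.0543, 0.0741 and -0.115), although same-numbered samples there also share a p number. The block left 0 of 11529 genes called there by limma, with 3126 at an unadjusted p under 0.05, against 426 called in the fit without it. In MDA-MB-468 cells 247 genes were called, 241 with the replicate block, 0 with the p number block (2218 at an unadjusted p under 0.05), 537 in 1 fit of all samples and 424 with the filter, and 0 to 474 with a sample left out. In MDA-MB-231 cells it was 99 to 311 with a sample left out, 1248 with no fold limit and 85 with a log2 fold change over 1 (53 in MDA-MB-468 cells). For the difference between cell lines, 4 members were called, 1 with the replicate block (adjusted p of NOTCH2 0.0503, NOTCH3 0.0561 and RBPJ 0.0919) and 1 to 4 with a sample left out. Scaling to the 75th percentile moved the share of higher calls from 64.6% to 74.2% in MDA-MB-231 cells, and from 53.7% to 41.6% for the difference between cell lines, and no scaling moved the median of all genes by over 0.1.

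Changes of sign occurred near 0. With a sample left out, the log2 fold change in MDA-MB-468 cells ran from -0.066 to 0.134 for NOTCH1, from -0.014 to 0.132 for JAG1 and from -0.0747 to 0.0215 for MAML1. In MDA-MB-231 cells it ran from -0.16 to 0.0467 for NOTCH1, -0.0319 to 0.078 for MAML1, -0.299 to 0.0835 for HES1, -0.0584 to 0.0029 for LFNG and -0.0015 to 0.0629 for NEURL1. LFNG was at 0.0079 with 75th percentile scaling and NEURL1 at -0.0098 with quantile normalization. The difference between cell lines ran from -0.0127 to 0.206 for NOTCH1, -0.121 to 0.309 for JAG2, -0.112 to 0.00011 for MAML1 and -0.422 to 0.0794 for HES1, and the control difference of NOTCH1 from -0.18 to 0.0272. The causes were not tested. Depth is unknown, so the precision of low FPKM values cannot be given.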
